A study of Mus musculus with 2 samples.

Results

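The S100 calcium-binding proteins described here are 8 genes, S100a8, S100a9, S100a6, S100a11, S100a10, S100a4, S100a13 and S100a1, taken by symbol from the 28692 genes listed in 2 single-cell count matrices. Another 9 listed genes carry an S100 symbol and are given once at the end. The matrices hold GR-1+ cells, that is, cells carrying the Ly6G or Ly6C surface antigens that the GR-1 antibody binds, from mouse mammary tumors. Both tumors were grown from 4T1, a triple-negative breast carcinoma line, injected into the mammary fat pad of female BALB/c mice aged 8 to 10 weeks, and both were treated with anti-PD1 (clone RMP1-14) for up to 2 weeks. The 4T1p tumor came from the parental cells, which the study describes as resistant to anti-PD1. The 4T1m tumor came from a polyclonal pool made by exposing those cells to the mutagen MNNG, described as responsive. Each condition is 1 library, and how many mice it came from is not given in the sources used here. So no p-value was computed and the intervals below cover counting error only.

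S100 proteins are small calcium sensors with paired EF-hand motifs that act mostly as dimers. S100a8 and S100a9 form the heterodimer calprotectin, which fills much of the neutrophil cytosol, sequesters zinc and manganese, and, once released, signals through receptors such as Tlr4. The other members mostly bind intracellular partners: S100a10 and S100a11 bind annexins, S100a4 binds nonmuscle myosin, and S100a6 binds Cacybp and annexins.

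Of 1641 barcodes labelled 4T1p and 2749 labelled 4T1m, 1128 and 2092 were kept, those with 250 to 5000 detected genes, at most 27000 unique molecular identifiers (UMIs) and at most 1 in 8 UMIs from mitochondrial genes. The libraries shared 0 barcodes. All barcodes of the 4T1p library held 9021132 UMIs with a median of 2066, and those of the 4T1m library 14840190 with a median of 2763. The study's methods give each of these medians for the other tumor, so every direction between the tumors below rests on the labels as deposited. Cells were clustered without any S100 gene and named from markers that include none. Granulocytic-like cells, with markers such as Csf3r, Cxcr2 and Retnlg, numbered 253 in 4T1p and 1024 in 4T1m. Monocytic-like cells, with markers such as Csf1r, Apoe and C1qa, numbered 678 and 715. A mixed B and T lymphocyte cluster, cluster 9, held 9 and 55 cells and served as background. Its cells held 27 and 543 UMIs of the B cell markers and 188 and 287 of the T cell markers. The 4 endothelial markers held 43 UMIs in its 9 cells of 4T1p and 2 in the 55 of 4T1m. What part of the S100 values of the 9 cells came with these endothelial transcripts was not tested. Cluster 1, with 188 and 298 cells of low RNA content led by Fabp5 and Lgals1, was left unnamed. A UMI of Ptprc, the pan-leukocyte gene, was found in 518 and 1575 of the kept cells.

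All 8 genes lie on mouse chromosome 3 (GRCm38, GENCODE vM21). S100a8 (chr3:90668978-90670035, plus strand) and S100a9 (chr3:90692632-90695721, minus strand) are neighbors in this list, 22597 bases apart. S100a1, S100a13, S100a4 and S100a6 lie before them, from 90511034 to 90624181. S100a11 and S100a10 stand apart, from 93520488 to 93564643. S100a1 and S100a13 start head to head, with their gene models 43 bases apart. The promoters of S100a8 and S100a9 are printed because the pair leads the transcripts of granulocytic-like cells and has its highest levels in the same clusters. Sequences are RefSeq promoters on GRCm38.p6, 5′ to 3′ on the gene's own strand, and capitals mark matches to TTNNGNAA, a pattern found in many C/EBP sites, searched on both strands. For S100a8 the run stops where the GENCODE gene model begins, 93 bases before the RefSeq start.
S100a8, chr3:90668821-90668977: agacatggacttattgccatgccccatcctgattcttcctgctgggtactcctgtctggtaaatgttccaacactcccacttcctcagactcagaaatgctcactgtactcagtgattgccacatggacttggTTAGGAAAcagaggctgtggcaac
S100a9, chr3:90695722-90695971: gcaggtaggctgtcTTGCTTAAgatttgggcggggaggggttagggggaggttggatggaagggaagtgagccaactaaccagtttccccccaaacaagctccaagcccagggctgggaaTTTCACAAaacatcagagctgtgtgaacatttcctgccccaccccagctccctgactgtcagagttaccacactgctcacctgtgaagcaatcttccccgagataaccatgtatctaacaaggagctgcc
The match begins 117 bases before the RefSeq start in S100a8, and 236 and 130 bases before it in S100a9. Of all 32851 RefSeq promoters, 36.8% hold such a match in the same 250 bases. The letters TATAAA were found 30 bases before the start of S100a8 and 31 bases before that of S100a4, were not in the S100a9 window, and are in 12.4% of all promoters. Of the 8 genes, 7 had a promoter in the table, and the other 5 windows are not shown. S100a10 has no entry there.

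S100a8, S100a9, S100a6 and S100a11 were over 2-fold higher in granulocytic-like cells, and S100a10, S100a4, S100a1 and S100a13 were over 2-fold lower there, in both libraries. Among the 3034 genes with at least 200 UMIs in both comparisons, 9.62% were over 2-fold higher and 42.6% over 2-fold lower in both libraries. The 4 of 8 higher members stand against the first share. The 4 of 8 lower members are near the second, and S100a13 was no longer among them with TMM scaling or DESeq2 size factors. The minimum applied to the sum of both lineages. Monocytic-like cells held 4263438 UMIs against 829155 in 4T1p, and 6700640 against 3161908 in 4T1m. A gene could thus pass through monocytic-like cells alone, as the 4 lower members did, with at most 44 and 176 granulocytic UMIs. This also enters both shares of all genes. In each library alone the counts were also 4 and 4, beside 13.4% higher and 45.3% lower of 3048 genes in 4T1p and 11.5% higher and 46.8% lower of 4904 genes in 4T1m. The median log2 ratio over those genes was -0.77 in 4T1p and -0.86 in 4T1m. Levels are given as CPM, the UMIs of a gene per 1000000 UMIs of a group of cells in 1 library.

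**Figure D1:**
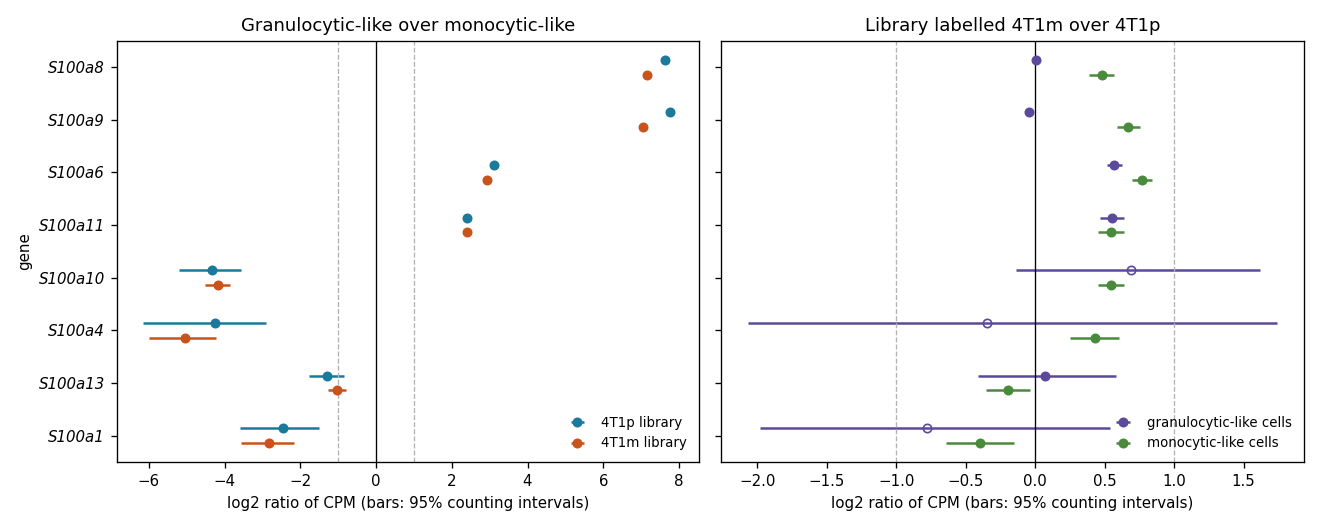
Log2 ratio of CPM for each S100 gene (vertical axis), granulocytic-like over monocytic-like cells in each library (left) and the library labelled 4T1m over 4T1p in each lineage (right), with 95% counting intervals; dashed lines mark 2-fold and open points have under 200 UMIs. On the left, 4 genes lie right of 2-fold and 4 left of it in both libraries, S100a13 not so under TMM scaling or DESeq2 size factors, and on the right no filled point passes 2-fold.

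S100a9 and S100a8 were the first and second most abundant transcripts of granulocytic-like cells in both libraries. S100a8 stood at 68024 CPM in 4T1p and 68422 in 4T1m, and S100a9 at 83726 and 81203, ahead of the ferritin gene Fth1 at 48728 and 45658.5. Together they made up 15.2% and 15.0% of all UMIs of these cells, and S100a8 was found in 94.9% and 98.2% of them. After each cell was thinned to 1000 UMIs, S100a8 was found in 92.6% of 229 cells in 4T1p and 98.2% of 940 cells in 4T1m, and both genes in 91.3% and 96.8%. The median thinned cell carried 22 and 36 S100a8 UMIs, and 46 and 59 S100a9 UMIs. Across thinned granulocytic-like cells the 2 genes followed each other, with a Spearman correlation of 0.85 over 229 cells and 0.87 over 940 cells that share a library each. Since the UMIs of a cell sum to a fixed total, these correlations are descriptions only.

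In monocytic-like cells S100a8 reached 346 CPM in 4T1p and 482 in 4T1m, and S100a9 386 and 613. The log2 ratio of granulocytic-like over monocytic-like cells was 7.62 (95% interval 7.54 to 7.69) and 7.15 (7.10 to 7.20) for S100a8. It was 7.76 (7.69 to 7.83) and 7.05 for S100a9. For both genes summed it was 7.70 and 7.09, so the monocytic level was 0.48% and 0.73% of the granulocytic one. The 10 granulocytic markers that named the lineage spanned 0.36% (Lcn2) to 10.4% (Clec4d) in 4T1p and 0.37% (Retnlg) to 28.3% (Mmp9) in 4T1m by the same measure, with 4 of 10 below 1% in each.

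The UMIs of S100a8 and S100a9 in monocytic-like cells sat in very few cells. In 4T1p, 3 of 678 cells held at least 50% of the S100a8 UMIs and 3 of 678 held as much of S100a9, with 393 and 496 UMIs in the highest cell, and 1 of the 3 cells for each gene was among those with the highest Scrublet doublet scores. In 4T1m it took 9 of 715 cells for each gene, of which 3 for S100a8 and 4 for S100a9 were among them. The median monocytic-like cell had 0.00% of its UMIs from the pair in 4T1p and 0.024% in 4T1m, and 7 and 16 cells exceeded 1%. By contrast, granulocytic-like cells had a median of 6.36% and 8.96%, with 10th to 90th percentiles of 0.42% to 24.0% and 1.33% to 24.9%. Their summed UMIs were uneven as well, with at least 50% of the S100a8 UMIs in 11 of 253 cells in 4T1p and 75 of 1024 in 4T1m. For S100a9 it took 18 and 113 cells. No monocytic-like cell exceeded 5% in either library, and 147 of 253 and 681 of 1024 granulocytic-like cells did.

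**Figure D2:**
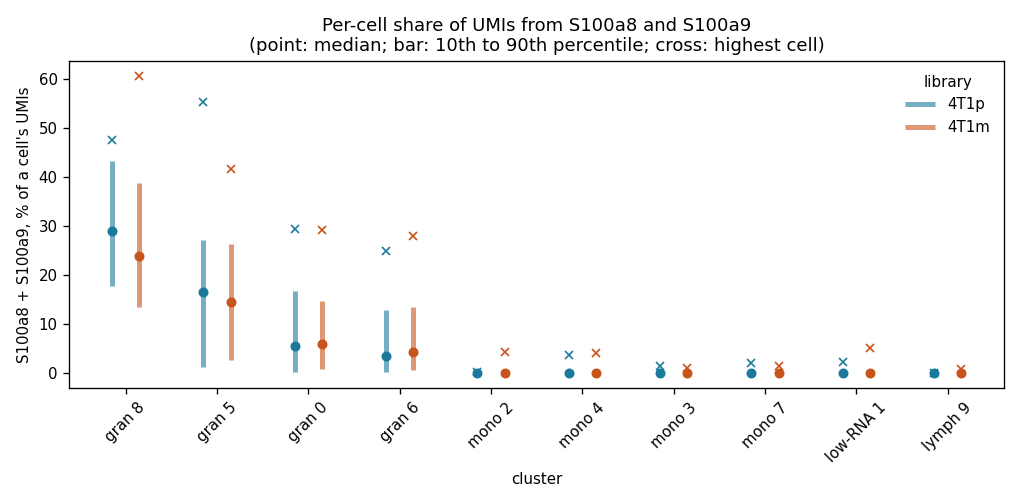
Percent of each cell's UMIs from S100a8 and S100a9 (vertical axis) by cluster and library, with the median (point), 10th to 90th percentile (bar) and highest cell (cross). The granulocytic-like clusters 8, 5, 0 and 6 have medians of 3.45% or more in both libraries, and the other clusters lie at or near 0 with single cells of up to 5.23%.

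Monocytic-like cells had an S100a8 UMI in 22.3% of cells in 4T1p and 55.2% in 4T1m, at median depths of 2018 and 8792 UMIs, and in 10.2% and 19.3% after thinning. S100a9 was found in 29.1% and 66.0% unthinned and in 11.8% and 21.9% thinned, and both genes together in 3.11% and 8.63% of thinned cells. Lymphocytic cells of 4T1m, which should not transcribe the gene, had an S100a8 UMI in 29.1% of 55 cells at a median depth of 4154, and in 9.09% (exact binomial interval 3.02% to 19.95%) after thinning. The thinned monocytic share of 4T1m was 19.3% (16.3% to 22.5%), a range that overlaps the interval of the lymphocytic share. The summed level was 203 CPM in lymphocytic cells against 482 in monocytic-like cells. These lymphocytic cells held 136 UMIs of the pair, unevenly spread. The pair made up a median of 0.014% of a cell's UMIs, with a 90th percentile of 0.055% and 0.78% in the highest cell. In 4T1p, 0 of 9 lymphocytic cells had an S100a8 UMI, which allows up to 33.3% of cells by a floor of 3 counts and bounds little. S100a9 in the lymphocytic cells of 4T1m stood at 235 CPM, and the S100a9 to S100a8 UMI ratio there was 1.16 (0.82 to 1.65), against 1.27 (1.21 to 1.33) in monocytic-like and 1.19 (1.18 to 1.19) in granulocytic-like cells of that library. In monocytic-like cells of 4T1p it was 1.11 (1.04 to 1.19). The monocytic-like clusters differed, with 0.56 (0.42 to 0.76) and 1.21 in cluster 2 of 4T1p and 4T1m, and 1.95 and 1.83 in cluster 3. Clusters 4 and 7 had 1.09 and 1.34, and 1.12 and 1.36. How much of the monocytic signal is free RNA or doublets was not tested.

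Within the granulocytic-like cells the pair formed a steep gradient. Cluster 8, led by Camp, Ngp and Ltf, the secondary granule genes of immature neutrophils, had the highest level, with 166440 and 135803 CPM of S100a8 and 176414 and 135297 CPM of S100a9 in 4T1p and 4T1m. A median of 29.1% and 23.9% of the UMIs of a cluster 8 cell came from the pair. Cluster 5, led by Slc2a3, Steap4, Prok2 and Cxcr2, followed with 82805 and 67830 CPM of S100a8. Cluster 0, led by Mirt1, Il1f9, Irg1 and Csf1, had 29640 and 30298 CPM, and cluster 6, led by Ccdc126 and Ciart, 23116 and 27644 CPM. The order 8, 5, 0, 6 held for both genes in both libraries, with intervals of neighboring clusters that did not overlap. These intervals leave out the spread between cells, and clusters 8 and 5 of 4T1p held 25 and 34 cells. S100a6 and S100a11 were also highest in cluster 8 or 5: S100a6 had 10685 and 13284 CPM in cluster 8 but 1665 and 2505 in cluster 0. S100a11 had 2724 and 3639 CPM in cluster 8, 2758 and 2940 in cluster 5, and 573 and 870 in cluster 6. Of the 4 members with at least 200 UMIs in clusters 8 and 0, 4 were over 2-fold higher in cluster 8, beside 11.5% of 381 genes in 4T1p and 7.97% of 1205 genes in 4T1m. For cluster 5 over cluster 0 it was 4 of 4 in 4T1p, beside 7.76% of 322 genes, and 2 of 4 in 4T1m, beside 4.23% of 1065 genes, where S100a9 and S100a11 had log2 ratios of 0.87 and 0.88. For cluster 6 over cluster 0, 0 of 4 were over 2-fold higher, beside 12% of 366 genes and 11.4% of 1039 genes. S100a11 was 2-fold lower there in 4T1p, with a log2 ratio of -1.02 (-1.40 to -0.66), beside 13.9% of genes lower, and stood at -0.87 in 4T1m, where 12.8% were lower.

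**Figure D3:**
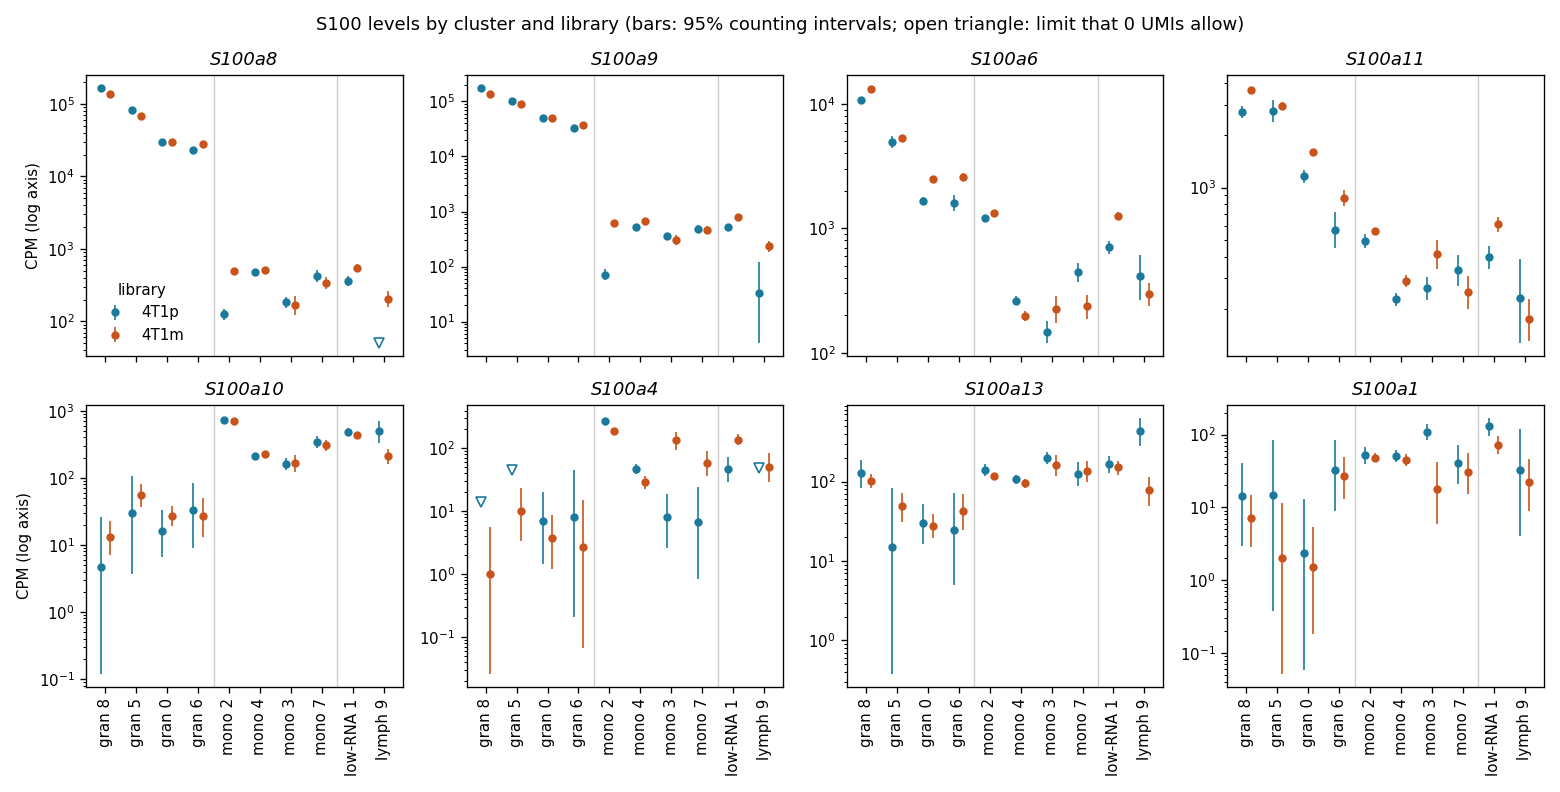
CPM (log axis) of each S100 gene by cluster and library, with 95% counting intervals and open triangles where 0 UMIs were counted. S100a8, S100a9 and S100a6 are highest in the granulocytic-like cluster 8, whereas S100a10 is highest among the named myeloid clusters in the monocytic-like cluster 2, at 725 and 697 CPM.

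The genes of each pair did not change by the same factor along this gradient. Among the granulocytic-like clusters, the ratio of S100a9 to S100a8 UMIs was lowest in cluster 8, at 1.06 (1.04 to 1.08) in 4T1p and 0.996 (0.989 to 1.004) in 4T1m. It was 1.21 and 1.34 in cluster 5, 1.40 and 1.36 in cluster 6, and 1.68 (1.64 to 1.72) and 1.65 (1.63 to 1.67) in cluster 0. A 3′ tag counts each captured transcript once whatever its length, so these ratios compare captured molecules. The ratio of S100a6 to S100a11 ran the other way between clusters 8 and 0, at 3.92 (3.58 to 4.30) and 3.65 (3.52 to 3.79) in cluster 8 and 1.43 (1.28 to 1.61) and 1.57 (1.49 to 1.66) in cluster 0. It was 1.78 and 1.80 in cluster 5, and 2.80 and 3.0 in cluster 6. In the monocytic-like cells it was highest in cluster 2, at 2.47 and 2.36, and below 1 in cluster 3, at 0.56 and 0.54, where S100a11 was the more abundant of the pair. It was 1.15 in 4T1p and 0.68 (0.605 to 0.771) in 4T1m in cluster 4, and 1.33 and 0.94 in cluster 7.

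**Figure D4:**
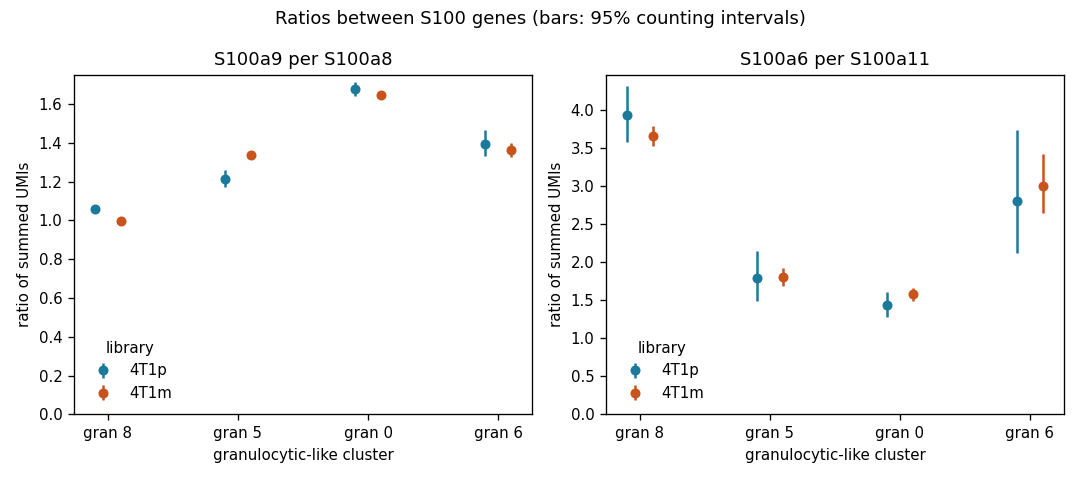
Ratio of summed UMIs of S100a9 to S100a8 (left) and of S100a6 to S100a11 (right) in the 4 granulocytic-like clusters of each library, with 95% counting intervals. The left ratio is lowest in cluster 8, at 1.06 and 0.996, and highest in cluster 0, at 1.68 and 1.65, whereas the right ratio is highest in cluster 8, at 3.92 and 3.65, and lowest in cluster 0.

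S100a6, a binding partner of Cacybp and annexins, and S100a11, a partner of Anxa1, were the granulocytic-leaning members outside calprotectin. S100a6 stood at 4230 and 6283 CPM in granulocytic-like and 489 and 832 in monocytic-like cells, a log2 ratio of 3.11 (3.03 to 3.19) and 2.92 (2.88 to 2.96). S100a11 stood at 1604 and 2350 against 304 and 444 CPM, a log2 ratio of 2.40 in both libraries. S100a6 was found in 75.9% and 83.5% of granulocytic-like and 28.2% and 53.1% of monocytic-like cells, and S100a11 in 72.7% and 82.8% against 46.9% and 69.4%. After thinning, S100a6 was found in 59.8% and 73.9% of granulocytic-like and 19.3% and 34.1% of monocytic-like cells, and S100a11 in 52.8% and 72.1% against 23.7% and 30.2%. Lymphocytic cells of 4T1m had 296 CPM of S100a6 and 174 of S100a11, below monocytic-like cells of that library, and the 9 lymphocytic cells of 4T1p had 413 and 231 CPM. In monocytic-like cells S100a6 was at 1215 and 1323 CPM in cluster 2, and at 262 and 198 in cluster 4. The granulocytic-like clusters 0 and 6 of 4T1p had 1665 and 1604 CPM, and in 4T1m these clusters stood further above cluster 2. S100a11 spanned less within the lineage, from 228 to 492 CPM across its clusters in 4T1p and from 250 to 561 in 4T1m.

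S100a10, the annexin A2 ligand, was the reverse. Granulocytic-like cells had 16.9 and 27.2 CPM, from 14 and 86 UMIs, and monocytic-like cells 337 and 492 CPM, a log2 ratio of -4.32 (-5.19 to -3.57) and -4.18 (-4.50 to -3.87). Within the monocytic-like cells it was highest in cluster 2, led by Thbs1, Ednrb, Vcan and Il6, at 725 and 697 CPM, then 348 and 309 in cluster 7, led by the cell cycle genes Birc5, Top2a and Stmn1, 209 and 224 in cluster 4, led by C6, Cx3cr1 and Cxcl9, and 161 and 167 in cluster 3, led by Tmem176a, Aif1 and H2-Eb1. In each of clusters 2, 3, 4 and 7 the counting interval of the 4T1m over 4T1p ratio included 0. Lymphocytic cells also had S100a10, at 496 and 209 CPM. The first value comes from 9 cells of 4T1p, which together held 43 UMIs of the endothelial markers.

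S100a4, which binds nonmuscle myosin and is linked to cell motility, was concentrated in few cells. Only 4 and 12 UMIs were counted in granulocytic-like cells, 4.8 and 3.8 CPM, against 92.6 and 125 CPM in monocytic-like cells, a log2 ratio of -4.26 (-6.15 to -2.90) and -5.04 (-6.00 to -4.22). Of 1393 monocytic-like cells, 1128 had no S100a4 UMI, and 86 had 5 or more, of which 72 were in cluster 2. Cluster 2 held 70.6% of the monocytic S100a4 UMIs and 14.3% of the cells in 4T1p, and 85.0% and 46.0% in 4T1m. Its cells were deep, and it held 1033007 of the 4263438 monocytic UMIs of all genes in 4T1p and 3756416 of 6700640 in 4T1m. The counts of cells above were not thinned. Median depth was 10586 UMIs in cluster 2, 13559 in cluster 4, 1181 in cluster 3 and 1480 in cluster 7. The level in cluster 2 was 270 and 189 CPM, and 47.0 and 29.0 in cluster 4. In cluster 3 the level was 8.1 CPM in 4T1p, from 5 UMIs, and 134 CPM in 4T1m, from 37 UMIs. The 6 dendritic markers held 0 UMIs in cluster 3 of 4T1p and 159 in that of 4T1m, and their part in this difference was not tested. In cluster 7 it was 6.8 CPM in 4T1p, from 2 UMIs, and 59.1 CPM in 4T1m, from 21 UMIs. Cells with S100a4 had S100a6 and S100a10 more often. After thinning, S100a6 was found in 61.5% of 26 monocytic-like cells with S100a4 and 16.9% of 456 without in 4T1p, and in 81.4% of 59 and 29.3% of 590 in 4T1m. S100a10 was found in 53.8% against 22.1%, and in 64.4% against 28.3%. S100a11 was found in 34.6% against 23.0% in 4T1p, with intervals that overlap, and in 52.5% (39.1% to 65.7%) against 27.97% (24.4% to 31.8%) in 4T1m, with intervals that do not. The exact binomial intervals of these shares did not overlap for S100a6 and S100a10 in either library, whereas for S100a8 (19.2% against 9.65%, and 23.7% against 18.8%) they did. The shares pool clusters 2, 3, 4 and 7, and among these S100a4, S100a6 and S100a10 were each highest in cluster 2. Whether the shares differ within a cluster was not tested. Cells of 1 library are not replicates, so the intervals are descriptions.

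**Figure D5:**
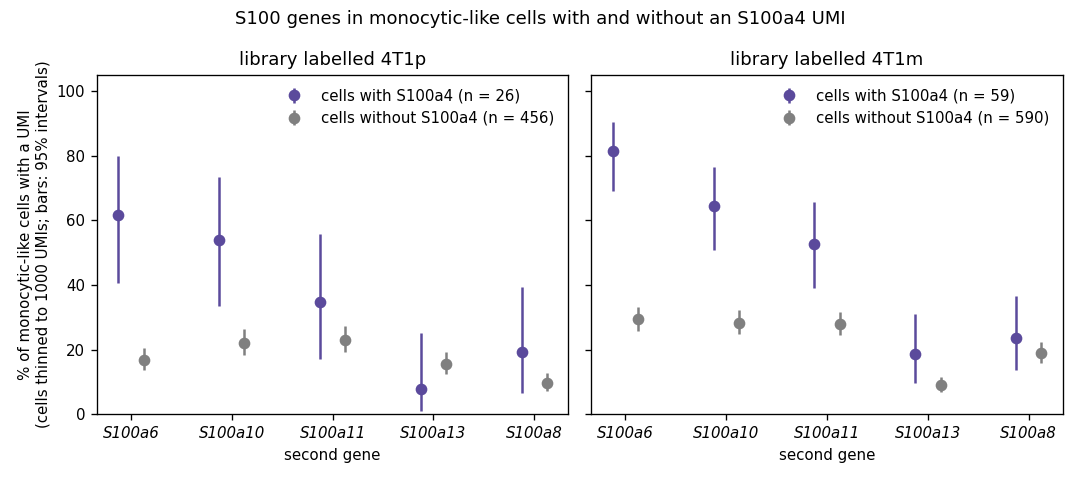
Percent of monocytic-like cells with a UMI of a second S100 gene, in cells with and without an S100a4 UMI, all thinned to 1000 UMIs, with 95% exact binomial intervals. S100a6 and S100a10 are detected more often beside S100a4 in both libraries, whereas the intervals for S100a13 and S100a8 overlap in both and those for S100a11 in 4T1p alone.

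S100a1, best known from heart and skeletal muscle, and S100a13, which takes part in the release of signal-less cytokines, were the lowest members in monocytic-like cells together with S100a4. S100a1 had 10.9 and 6.3 CPM in granulocytic-like and 59.1 and 44.9 in monocytic-like cells, a log2 ratio of -2.45 and -2.83. It was highest among the named clusters in cluster 3 of 4T1p at 109 CPM, but in that cluster of 4T1m it rested on 5 UMIs, 18.1 CPM. S100a13 had 53.1 and 55.7 against 129 and 113 CPM, a log2 ratio of -1.28 and -1.02, which is close to the median gene of this comparison (-0.77 and -0.86). With DESeq2 size factors its ratios were -0.59 and -0.06 and with TMM scaling -0.74 and -0.16, so that it was no longer over 2-fold lower. In 4T1m it was also short of 2-fold without the UMIs of S100a8 and S100a9 in the total (-0.79), with at most 5% mitochondrial UMIs (-0.91) and without cells lacking a Ptprc UMI (-0.96). S100a13 was the only member whose side of 2-fold in this comparison changed with either scaling. Among granulocytic-like cells it was highest in cluster 8, at 127 and 101 CPM from 27 and 99 UMIs, against 30.4 and 27.97 CPM in cluster 0. In the 9 lymphocytic cells of 4T1p it reached 430 CPM, from 26 UMIs, against 77.3 in the 55 of 4T1m. The endothelial markers summed to 711 CPM in those 9 cells and 6.4 CPM in the 55.

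The sum of S100a4, S100a6, S100a10 and S100a11 had a log2 ratio of 2.26 in 4T1p and 2.19 in 4T1m, a value carried by S100a6 and S100a11, since the other members of the sum moved the other way. Over the 19 cluster and library groups with at least 20 cells, the level of S100a8 followed that of S100a9 with a Pearson r of 0.995, S100a6 that of S100a11 with 0.94, and S100a10 that of S100a4 with 0.84, on log2(CPM + 10). S100a8 and S100a10 ran opposite at -0.91. Among 6411 genes outside the family, the profiles most like S100a8 were BC100530, Retnlg and Lcn2 (highest r 0.99), and those most like S100a9 were BC100530, Asprv1 and G0s2 (also 0.99). S100a6 was most like Mmp9, Mmp8 and Wfdc21 (highest r 0.94), S100a11 most like Mcemp1 and A530064D06Rik (highest r 0.96), and S100a10 most like Crip1, Sfxn3 and Maf (highest r 0.98). S100a4 was most like Tspan3, Capn2 and Appl2 (highest r 0.92), S100a13 most like Txndc17, Lamtor4 and Tbcb (highest r 0.96), and S100a1 most like Sco2, Gde1 and Npc2 (highest r 0.86). The groups share libraries and depth, so these are descriptions.

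Binding partners, receptors and transcription factors of the family were listed beside the members. Of the 18 listed genes, 12 had 200 UMIs in 4T1p, with 4 over 2-fold higher and 3 lower in granulocytic-like cells. In 4T1m 13 had, with 3 higher and 3 lower. Of all genes tested, 13.4% were higher and 45.3% lower in 4T1p, and 11.5% and 46.8% in 4T1m. Here too the minimum of UMIs applied to the sum of both lineages. Anxa1, the partner of S100a11, was higher in granulocytic-like cells, at 1199 and 1350 against 167 and 280 CPM, a log2 ratio of 2.85 and 2.27. Anxa2, the partner of S100a10, differed little, at 539 and 552 against 300 and 464 CPM, with ratios of 0.85 and 0.25. Ahnak, a large scaffold bound by the S100a10 and annexin A2 complex, was lower, at -4.57 and -5.15. Over the 19 groups Ahnak had an r of 0.83 with S100a10 and 0.84 with S100a4, whereas Anxa2 had an r of -0.27 with S100a10. Cacybp, the partner of S100a6, was also lower, at -2.24 and -2.61, and Myh9, the myosin bound by S100a4, was near 0 at -0.22 and 0.05. Among the receptors, Tlr4 was higher at 1.92 in 4T1m, and in 4T1p it rested on 69 and 87 UMIs, at 83.2 against 20.4 CPM. Cd14, its coreceptor, had ratios of 1.42 and 0.91, and Ager, the receptor for advanced glycation end products, had no more than 2 UMIs in any lineage of either library. Cebpb, a C/EBP factor of myeloid cells, had 7820 and 7120 CPM in granulocytic-like cells and ratios of 2.09 and 2.15, whereas Cebpa, the factor of early myeloid progenitors, was lower at -3.46 and -4.45. Cebpe, the C/EBP factor of granule formation, had only 10 and 44 UMIs in granulocytic-like cells.

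Between the tumors, the summed calprotectin level of granulocytic-like cells was nearly the same, but the median cell was higher in 4T1m. The pair made up a median of 6.36% of a cell's UMIs in 4T1p and 8.96% in 4T1m. The 25 cluster 8 cells of 4T1p held 35376 of the 56402 S100a8 UMIs of that lineage and library. For the summed levels, the log2 ratio of the library labelled 4T1m over 4T1p was 0.01 (-0.01 to 0.02) for S100a8, -0.04 (-0.06 to -0.03) for S100a9 and -0.02 for their sum. TMM scaling and DESeq2 size factors put the sum at 0.23 and 0.10. S100a6 and S100a11 were higher in 4T1m by 0.57 (0.52 to 0.62) and 0.55 (0.47 to 0.64). None of the 5 members with 200 UMIs passed 2-fold, beside 7.44% of 1988 genes. The mix of clusters differed: cluster 8 made up 9.88% of granulocytic-like cells in 4T1p and 14.3% in 4T1m, and cluster 5 13.4% and 25.5%. Within clusters 8 and 5, S100a8 was lower in 4T1m by log2 ratios of -0.29 and -0.29, in cluster 0 it stood at 0.03, and in cluster 6 it was higher at 0.26. S100a6 was higher in 4T1m in clusters 0 (0.59), 6 (0.70) and 8 (0.31), and stood at 0.11 in cluster 5. Over all kept cells S100a8 was at 10417 CPM in 4T1p and 20311 in 4T1m, with granulocytic-like cells at 253 of 1128 and 1024 of 2092, shares that the GR-1 selection and the filters also set. Differences between mice, tumors and libraries cannot be told apart with 1 library each.

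In monocytic-like cells, 0 of 8 members passed 2-fold between the tumors, beside 8.55% of 5465 genes, and the largest share of these cells lay in different clusters, cluster 3 in 4T1p (44.4%) and cluster 2 in 4T1m (46.0%). S100a6 was higher in 4T1m by a log2 ratio of 0.77 (0.69 to 0.84), S100a9 by 0.67, S100a10 and S100a11 by 0.55 each, S100a8 by 0.48 and S100a4 by 0.43. The sum of S100a4, S100a6, S100a10 and S100a11 was higher by 0.63. S100a1 and S100a13 had ratios of -0.40 and -0.20. As a mean over cells, 3 of 8 members passed 2-fold upward, S100a8 (1.15), S100a9 (1.13) and S100a4 (1.04), and S100a1 passed it downward (-1.25). S100a9 also passed it with at most 5% mitochondrial UMIs (1.01) and after thinning (1.22). The share of all genes past 2-fold was not computed under these settings, so these counts have no background. At 1.5-fold, 2 of 8 members were higher in 4T1m, S100a6 and S100a9, beside 23% of the genes. Within single clusters these values differed. In cluster 2 the ratios of S100a6, S100a10 and S100a11 were 0.12, -0.06 and 0.19, and that of S100a4 was -0.51 (-0.72 to -0.31), opposite to its value over the lineage. In cluster 4 S100a6 and S100a10 stood at -0.41 and 0.10. In cluster 2, 2 of 8 members, S100a8 and S100a9, passed 2-fold upward, beside 4.17% of 3212 genes, with log2 ratios of 1.99 (1.73 to 2.25) and 3.09 (2.75 to 3.44), at 127 and 503 CPM of S100a8 and 71.6 and 609 CPM of S100a9. In 4T1m, 6 of 329 cells held at least 50% of these UMIs, and 3 of the 6 were among the highest doublet scores. Without the cells of highest scores the ratios were 1.42 and 2.50. With all cells of cluster 2 included, the summed level of the 10 granulocytic markers was 556 and 803 CPM in the libraries. The 5 markers of immature granulocytic cells summed to 270 and 111 CPM there. Most UMIs of this list in monocytic-like cells came from Chil3 (215 and 223) and Mmp8 (112 and 195). Camp had 4 and 6, Ngp 8 and 24, and Ltf 5 and 11 UMIs in all monocytic-like cells of 4T1p and 4T1m. The monocytic level of Chil3 was 25.3% and 113% of the granulocytic one. The 3 erythroid markers summed to 5.81 and 1948 CPM in cluster 2, to 23.8 and 6413 in cluster 7, and to 8.91 and 1437 over all monocytic-like cells, and their part in these ratios was not tested. In cluster 7 of 4T1p, 1 of 97 cells, also of high doublet score, held 73 of the 125 S100a8 UMIs, and leaving such cells out moved the 4T1m over 4T1p ratio there from -0.32 to 0.90. The part of doublets and free RNA in this difference was not tested further.

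The other 9 genes with an S100 symbol were at or near 0. S100a5, S100g and S100z had 0 UMIs in both libraries, and S100a2, S100a3, S100a7a, S100a14, S100a16 and S100b together had few, the most being 22 UMIs of S100a3 in the kept cells of 4T1m. S100a3 lies 1069 bases before S100a4 in the annotation, on the same strand, and how reads between the 2 gene models were counted was not tested.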

How the data were processed

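The deposited values are raw counts of UMIs per gene and barcode, which the authors made with Cell Ranger (named in the submitters' processing notes, build mm10) from 10x 3′ v3 libraries; the matrix header gives software version 3.1.0, which is not the version in the study's methods. The barcodes were already filtered as cells, with depth as in the report. Members and lists were chosen with earlier results of these data known.

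Cells were filtered as stated in the report, without the Ptprc filter of the study. SCTransform (Seurat 5.3.0, sctransform 0.4.2, R 4.3.3) on both libraries took 3000 variable genes, from which 9 S100 genes were removed, then 11 components and Louvain clusters at resolution 0.8. Clusters took the lineage with the higher marker score, with no S100 gene among the markers. A cluster of low depth with no marker of its lineage among its leading genes was left unnamed. This held for cluster 1, whose median depth was 0.33 of the library median in the library where it was lowest. Its monocytic and granulocytic scores were 0.50 and 0.05, with 7 monocytic markers in at least 25% of its cells. Doublets were ranked with Scrublet (scanpy 1.11.5) at 1% per 1000 cells and kept, 13 and 44 cells being left out only as an alternative. A level is the summed count as CPM with an exact Poisson interval, a ratio has the exact binomial interval of the 2 counts, and shares have exact binomial intervals, all at 95% and covering counting error only. Ratios were read as past 2-fold at 200 UMIs or more in both groups together. Cells under 1000 UMIs were left out of thinning: 24 and 84 granulocytic-like, 196 and 66 monocytic-like. The interval code was checked on counts simulated as Poisson draws, which cannot show how the intervals cover counts that vary between cells. Named genes are the 8 members, other S100 symbols, the listed partners, receptors and factors, the 3 most alike profiles of each member, the 5 most abundant genes of both lineages and the leading genes of clusters. Alternatives used edgeR 4.0.16 (TMM) and DESeq2 1.42.0 size factors on the summed counts, other filters, clusterings and scalings, and 2 alternatives chosen after seeing the data, which moved the low-RNA cluster and left high doublet scores out of cluster 2. Protein sequences were not used here. A gene among the alike profiles is not reported here.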

Additional observations from a re-analysis of the deposited data

Results flagged for a closer look

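S100a9 differed in direction between lineages when the library labelled 4T1m was set over 4T1p. The log2 ratio was -0.0441 in granulocytic-like and 0.67 in monocytic-like cells, and each counting interval excluded 0. The difference between the lineages was not tested, since each value rests on 1 library per tumor, and the granulocytic value turned positive under other scalings.

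Barcodes above the mitochondrial limit, which no comparison used, held the calprotectin genes at high levels. S100a8 stood at 7529 CPM in the 443 such barcodes of 4T1p and 9712 CPM in the 560 of 4T1m, and S100a9 at 9189 and 12682 CPM. These lie below the levels of granulocytic-like cells and above those of monocytic-like cells.

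S100a14 had 24 UMIs over all barcodes of 4T1p and 0 in 4T1m. Of the 24, 22 were in the 57 barcodes of 4T1p over the UMI or gene limit, where the epithelial genes Krt18 and Epcam stood at 447 and 280 CPM, and 2 were in kept cells. The 59 barcodes over those limits in 4T1m had 0 UMIs of S100a14, with Krt18 and Epcam at 256 and 69.1 CPM.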

How the results depend on the processing

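The ratios of single members and of the sums of S100a8 and S100a9 (the pair) and of S100a4, S100a6, S100a10 and S100a11 (the 4-gene sum), 40 in all, were recomputed in 447 alternative values. Of these, 282 stayed within the counting interval of the reported value, 156 moved outside it, and 9 changed the sign of a ratio whose interval excluded 0. Of the others, 8 values for 5 ratios whose interval included 0 also had the opposite sign, 4 of them outside the interval. All 5 were 4T1m over 4T1p ratios in granulocytic-like cells: S100a8 was -0.14 and S100a4 0.18 without cells lacking a Ptprc UMI, S100a10 was -0.27 with log-normalized clusters, and S100a1 was 0.55 and S100a13 -0.42 after thinning. No lineage ratio of a single member changed sign (0 of 191 alternatives). Scaling shifted the whole granulocytic over monocytic comparison, by 0.55 in 4T1p and 0.86 in 4T1m with TMM and by 0.69 and 0.96 with DESeq2 size factors. No paired analysis was possible because each condition is 1 library.

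The granulocytic over monocytic log2 ratio of the pair, 7.70 in 4T1p and 7.09 in 4T1m, was 8.24 and 7.95 with TMM, 8.39 and 8.06 with DESeq2 size factors, 7.93 and 7.33 without the UMIs of the pair in the total, 8.04 and 7.27 with at most 5% mitochondrial UMIs, 7.97 and 7.47 without the highest Scrublet scores, 7.34 and 6.71 with clusters from log-normalized counts, and 7.60 and 6.75 after thinning. In 4T1m alone it moved to 7.17 with the S100 genes in the clustering and to 6.70 as a mean over cells. The 4-gene sum, 2.26 and 2.19, was 2.81 and 3.06 with TMM, 2.95 and 3.16 with DESeq2 size factors, 2.50 and 2.43 without the UMIs of the pair, 1.95 and 1.88 with at most 5% mitochondrial UMIs, 1.98 and 1.90 as a mean over cells, and 1.73 and 1.87 after thinning. It moved to 2.41 in 4T1p without cells lacking a Ptprc UMI, and to 2.16 in 4T1m when the low-RNA cluster was counted as monocytic-like, an alternative chosen after seeing the data.

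The 4T1m over 4T1p ratio of the pair in granulocytic-like cells, -0.02, changed sign with log-normalized clusters (0.0178), TMM (0.23), DESeq2 size factors (0.10), as a mean over cells (0.15) and after thinning (0.13), and was -0.16 without cells lacking a Ptprc UMI. That of S100a9, -0.04, changed sign with TMM (0.21), DESeq2 size factors (0.0747), as a mean over cells (0.12) and after thinning (0.10). The 4-gene sum in monocytic-like cells, 0.63, was 0.57 with TMM, 0.48 with DESeq2 size factors and 0.73 as a mean over cells. The count of members higher there, 0 at 2-fold, was 2 at 1.5-fold. At 2-fold it was 3 as a mean over cells, where 1 member was lower, and 1 each with at most 5% mitochondrial UMIs and after thinning. These counts were added after seeing the data, and the share of all genes under the same settings was not computed. The counts of the other comparisons stayed within 1.5 times the reported ones under these settings. Thinning moved the share of monocytic-like cells with S100a8 to 10.2% and 19.3% and with S100a9 to 11.8% and 21.9%, and of granulocytic-like cells of 4T1m with S100a9 to 97.8%. The cause of these shifts was not tested.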

Other observations

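Barcodes over the UMI or gene limit differed in their calprotectin level between the libraries. S100a8 was at 55.5 CPM in the 57 such barcodes of 4T1p and 2912 CPM in the 59 of 4T1m, and S100a9 at 65.8 and 3131 CPM, whereas S100a6 was at 1741 and 1067 CPM. Barcodes under the gene minimum, 170 and 95, had S100a8 at 2088 and 6835 CPM.

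The unnamed low-RNA cluster 1 had the highest S100a1 level of all clusters, at 129 CPM in 4T1p and 72.9 in 4T1m, from 54 and 48 UMIs. Its S100a6 level was 704 and 1253 CPM. In 4T1p 1 of its 188 cells held 119 of the 153 S100a8 UMIs.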
